A study of Mus musculus with 23 samples.

Results

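The livers described here came from male mice in which hepatic Cpt1a was ablated, and from male controls. They are 11 of the 23 livers in the series: 5 control males (replicates 1, 2, 3, 4 and 6) and 6 males labelled LKO, which stands here for the ablation of hepatic Cpt1a named in the title of the study. Both groups carry the B100 genotype label, both were fed WD for 16 weeks, and both were killed in the fed state. The sources used here name neither the composition of WD, the age of the mice, the allele and Cre driver behind LKO, nor what the B100 label stands for. Bulk polyadenylated RNA was sequenced from whole liver, so that fewer cells of a type and less RNA per cell cannot be told apart. The labels do not tie replicates to separate litters or days, and the p-values set the group difference against the spread between these livers.

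The description covers 9810 of the 24434 genes in the table, those that are autosomal, annotated as protein_coding, and have a mean of at least 50 read counts over the 11 livers. A further 5880 autosomal protein-coding genes lie below that mean. The genes just inside it are 1700056E22Rik and Gbp9, each exactly at that minimum, and those just outside are Cenpw and Efna5, each at 49.91. All 9810 passed the filter on low counts in the fit with 11 livers and in the fit without control male replicate 4, the control that stands furthest from the other livers.

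Carnitine palmitoyltransferase 1 sits in the outer mitochondrial membrane, and Cpt1a encodes its liver isoform. The enzyme joins long-chain fatty acids to carnitine so that they can enter the mitochondrion for beta-oxidation. It is the regulated entry step of the pathway: malonyl-CoA, the first committed product of fatty acid synthesis, inhibits it in the fed state, and fasting and PPAR-alpha, a nuclear receptor activated by fatty acids, raise it. The liver uses the acetyl-CoA that oxidation yields for ketone bodies and energy, and fatty acids that are not oxidised can be stored as triglyceride or secreted in lipoproteins.

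Total counts ran from 14224665 in control male replicate 4 to 18361717 in control male replicate 6. Replicate 4 had the fewest genes with any count (18232, against 19209 to 20025 in the other 10 livers) and the lowest median correlation with the other livers (0.96, against 0.972 to 0.985). Its log2 level lay above all others in 1563 of the 9810 genes and below all others in 1715, by at least 1 log2 unit from the median of the others in 112 and 200. LKO male replicate 1 came next, with 1511 above and 1281 below, 59 and 24 of them by at least 1 log2 unit, and control male replicate 6 followed with 1475 and 1132. The tests over all genes and the list medians are therefore given with and without control male replicate 4. Values of single genes are given without it only where stated.

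Cpt1a itself was lower in every LKO liver than in every control. Cpt1a (chromosome 19, 3372334 to 3435733, plus strand, mm39 per the submitters' processing notes) measured 321, 375, 381, 303 and 431 CPM (read counts scaled to the library total, with edgeR's TMM factors) in control replicates 1, 2, 3, 4 and 6. In the 6 LKO livers it was 42.2 at the lowest, 57.9 at the median and 96.8 at the highest. The lowest control was therefore more than 3 times the highest LKO liver, replicate 1. The means were 362 ± 51.0 CPM in controls (SD, n = 5) and 63.9 ± 20.3 in LKO livers (SD, n = 6), so that 17.6% of the control level remained. Cpt1a fell by a log2 value of 2.50 (SE 0.20, edgeR quasi-likelihood adjusted p = 9.97e-05) and, without control male replicate 4, by 2.56 (SE 0.20, edgeR adjusted p = 0.000163). On log2(CPM + 1) an exact permutation test, two-sided, gave p = 0.00216, the smallest that the 462 splits of 11 livers allow. Which part of the gene the ablation removes is not named in the sources used here, so that reads from outside it may be counted among the remainder.

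Both paralogs were far lower than Cpt1a in each group. Cpt1b, the muscle form, had 0 to 9 counts per liver and was too low to test. Cpt1c, the brain form, measured 2.38, 0.654, 1.69, 0.647 and 0.877 CPM in controls and 0.686 at the lowest, 0.922 at the median and 1.52 at the highest in LKO livers, and the groups overlapped. Its log2 difference was -0.31 (SE 0.36, edgeR adjusted p = 0.785).

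The question of the comparison is which other liver transcripts differ when Cpt1a is ablated. Cpt1a was the only one of the 13805 genes tested that passed an adjusted p of 0.05 (0.00724%), and again the only one of 14014 without control male replicate 4 (0.00714%). The lowest adjusted p of any other of the 9810 genes was 0.0611 with 11 livers and 0.0847 without that control, both from edgeR. At an unadjusted p under 0.05 there were 1338 of the 9810 genes, 534 higher and 804 lower in LKO livers, which is 13.6% against 12.5% of all genes tested. Without the control there were 1235, or 12.6% against 11.5%. Of the 1338, 898 (67.1%) were also among the 1235, of which they made up 72.7%. In 203 of the 9810 genes (2.07%, against 1.77% of all genes tested) no control shared the range of the LKO livers. Of these 76 were higher in LKO livers (background 0.674%) and 127 lower (background 1.1%). Without control male replicate 4 it was 312 genes (3.18%, against 2.79%), 129 higher (background 1.16%) and 183 lower (background 1.63%). Fewer livers overlap less by construction. The choice of test sets how many genes are called: DESeq2 called 107 of the 7374 genes to which it gave an adjusted p (1.45%), 34 higher and 73 lower, and the authors' deposited table lists the same 107 of its 24434 genes (0.438%). Of the 107 in the authors' deposited table, 97 are among the 9810 genes described. Of those 97, 38 were called by DESeq2 without control male replicate 4. In that fit DESeq2 called 98 of the 13033 genes to which it gave an adjusted p (0.752%). Among the 97, the 65 lower genes had a median length of 2231 bases and the 32 higher ones 5166.5, against 4474.5 over all 9810. Among the genes named below, DESeq2 called 15 with 11 livers: Tsku, Cyp2a5, Ces2c, 9130409I23Rik, Niban2, Gstt3, Pigyl, Fuom, Fabp5, Per2, Apcs, Ephx1, Galt, Eif5b and AY036118. Other named genes, among them Bach2, Steap2, Ugt1a6a, Siglec1 and Echdc1, got no adjusted p from DESeq2 with 11 livers and could not be called.

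**Figure D1:**
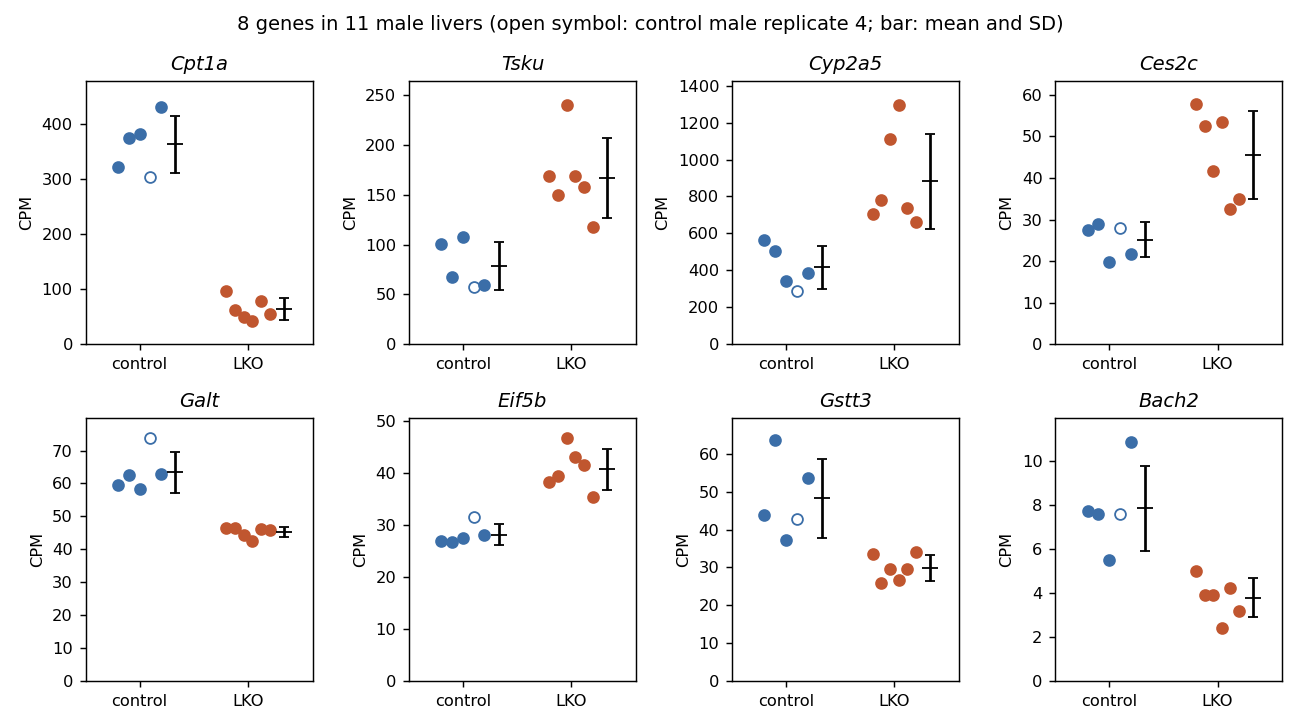
Each panel plots the TMM-scaled CPM of 1 gene (vertical axis, from 0) in the 5 control and 6 LKO male livers, 1 symbol per liver, with the mean and SD at the right of each group and control male replicate 4 as an open symbol. In all 8 genes the LKO livers sit on 1 side of all controls. Tsku, Cyp2a5, Ces2c, Gstt3 and Bach2 were named because their groups did not overlap, and Galt and Eif5b after their values were seen. Only Cpt1a passed the adjusted edgeR test.

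The largest positive values in LKO livers under the rule for named genes were those of Tsku, Cyp2a5, Sacm1l, Ccdc134, Ugt1a6a, Ces2c, Siglec1, 9130409I23Rik, Niban2 and Echdc1. These 10 genes, taken from the 58 that were separated between the groups at an unadjusted p under 0.01, did not pass the adjusted edgeR test, and they are given as values. Tsku (chromosome 7, 97999875 to 98010535), which encodes a protein secreted by the liver, measured 101, 67.4, 108, 57.0 and 59.3 CPM in controls and 117 at the lowest, 163 at the median and 240.0 at the highest in LKO livers. Every LKO liver lay above every control, by the smallest margin between LKO male replicate 6 and control male replicate 3. This was a log2 difference of 1.09 (SE 0.20, edgeR adjusted p = 0.149) and 0.997 (SE 0.21) without control male replicate 4. Cyp2a5 (chromosome 7, 26534730 to 26542973), a cytochrome P450 that hydroxylates coumarin and nicotine, measured 564, 503, 343, 286 and 385 CPM in controls and 663 at the lowest, 759.8 at the median and 1294 at the highest in LKO livers. The 2 highest livers were LKO replicates 4 and 3, and the lowest LKO liver was above the highest control. Its log2 difference was 1.08 (SE 0.21, edgeR adjusted p = 0.175), and 0.98 without the divergent control.

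Ces2c, a carboxylesterase that cleaves esters, amides and acylglycerols, measured 27.4, 28.9, 19.8, 28.0 and 21.6 CPM in controls and 32.5 at the lowest, 47.1 at the median and 57.8 at the highest in LKO livers. LKO male replicate 5 was nearest to the controls. On the log2 scale the difference was 0.85 (SE 0.16, edgeR adjusted p = 0.149). Ugt1a6a, a glucuronosyltransferase that shares its last exons with other Ugt1a genes and so may share reads with them, had a log2 difference of 0.91 (SE 0.17, edgeR adjusted p = 0.149). Echdc1, which removes ethylmalonyl-CoA that fatty acid synthesis would otherwise take up, had 0.76 (SE 0.15). Siglec1, the sialic acid receptor of macrophages, measured 6.02, 6.30, 7.78, 5.66 and 3.16 CPM in controls and 8.81 at the lowest, 9.88 at the median and 12.1 at the highest in LKO livers, a log2 difference of 0.81 (SE 0.18, edgeR adjusted p = 0.235). The summed level of 10 of 10 Kupffer cell markers overlapped between the groups, at 509 to 954 CPM in controls and 731 to 1152 in LKO livers. Of these markers 1 was higher at an unadjusted p under 0.05, against 5.23% of all genes tested. The part of Kupffer cells in the Siglec1 value was not tested. Sacm1l, a phosphoinositide phosphatase, Ccdc134, 9130409I23Rik and Niban2 completed the 10, with log2 differences of 0.93, 0.92, 0.78 and 0.77. For Ccdc134, LKO male replicate 1 stood at 11.8 CPM and the other LKO livers at 4.04 to 4.75, and without replicate 1 its log2 difference was 0.57.

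Lower in LKO livers, after Cpt1a, were Bach2, Steap2, Gstt3, Pigyl, Hspb11, Kcp, Rpl10-ps3, Fuom and B9d2, the largest among the 92 separated genes on that side. Bach2 (chromosome 4, 32238804 to 32586108), a transcriptional repressor best known in B and T cells, measured 7.72, 7.61, 5.49, 7.61 and 10.9 CPM in controls and 2.43 at the lowest, 3.93 at the median and 5.02 at the highest in LKO livers. The highest LKO liver, replicate 1, lay just under the lowest control, replicate 3. The log2 difference was -1.05 (SE 0.20, edgeR adjusted p = 0.149). The summed level of 10 lymphocyte markers overlapped between the groups, at 7.19 to 19.8 CPM in controls and 11.4 to 21.3 in LKO livers. Gstt3 (chromosome 10, 75609949 to 75617248), a theta-class glutathione transferase, measured 43.9, 63.7, 37.2, 42.7 and 53.6 CPM in controls and 25.8 at the lowest, 29.5 at the median and 34.0 at the highest in LKO livers. Control male replicate 2 was the highest, and the lowest control exceeded the highest LKO liver. This was a log2 difference of -0.69 (SE 0.13, edgeR adjusted p = 0.149). Steap2, a metalloreductase, had a log2 difference of -0.96 (SE 0.19, edgeR adjusted p = 0.171). Pigyl had -0.62 (SE 0.11) and, with an offset for gene length, -0.45. Rpl10-ps3 is named as a ribosomal protein pseudogene and may share reads with Rpl10. Its log2 difference was -0.55 and, with the gene length offset, -0.37. Fuom, the fucose mutarotase, Kcp, a BMP regulator, and the cilia genes Hspb11 and B9d2 ran from -0.58 to -0.52. With the gene length offset Hspb11 and B9d2 were at -0.49 and -0.39, and Fuom and Kcp at -0.52 and -0.63. Bach2, Steap2 and Gstt3 were at -1.15, -1.04 and -0.71 with that offset.

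Outside that naming rule, 3 genes were singled out after their values were seen because they had the lowest p after Cpt1a. Galt (chromosome 4, 41755228 to 41758695), the galactose-1-phosphate uridylyltransferase of galactose breakdown, measured 59.6, 62.5, 58.2, 73.9 and 62.8 CPM in controls and 42.5 at the lowest, 45.9 at the median and 46.4 at the highest in LKO livers. The 6 LKO livers were close together, and control male replicate 4 was the highest liver. On the log2 scale the difference was -0.49 (SE 0.07, edgeR adjusted p = 0.0611), and -0.42 (SE 0.06, edgeR adjusted p = 0.0847) without that control. Eif5b (chromosome 1, 38037091 to 38094660), which joins ribosomal subunits at the start of translation, measured 27.0, 26.7, 27.6, 31.5 and 28.1 CPM in controls and 35.4 at the lowest, 40.5 at the median and 46.7 at the highest in LKO livers. No liver overlapped the other group. Its log2 difference was 0.53 (SE 0.08, edgeR adjusted p = 0.0718). AY036118 (chromosome 17, 40158994 to 40159718), which is not protein-coding in the table and so not among the 9810 genes, measured 106, 158, 129, 155 and 142 CPM in controls and 56.4 at the lowest, 76.7 at the median and 89.5 at the highest in LKO livers, a log2 difference of -0.88 (SE 0.13, edgeR adjusted p = 0.0605).

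Leaving out control male replicate 4 separated a further set of genes. Cyp17a1, a steroid hydroxylase that female mouse liver carries at a higher level, measured 37.8, 28.6, 30.4, 9.31 and 39.4 CPM in controls and 12.9 at the lowest, 17.6 at the median and 23.3 at the highest in LKO livers. Control male replicate 4 was the lowest liver of all, and the other 4 controls lay above all LKO livers. The log2 difference was -0.69 (SE 0.28, edgeR adjusted p = 0.341) with that control and -0.91 (SE 0.15, edgeR adjusted p = 0.125) without it. Timd4, a phosphatidylserine receptor of resident Kupffer cells, measured 3.07, 4.34, 4.47, 8.17 and 3.57 CPM in controls and 5.78 at the lowest, 6.95 at the median and 8.36 at the highest in LKO livers. Here control male replicate 4 was among the highest livers, and the log2 difference went from 0.58 to 0.86 without it. Timd4 is itself 1 of the 10 Kupffer cell markers, and it was named by a rule that used its p in that fit. Of the 10 markers, 3 were higher at an unadjusted p under 0.05 in that fit, against 5.12% of all genes tested. Ugt2b38, Fpr1, Ifit3b and Trim30d were the other 4 with the largest positive values, from 0.75 to 0.93 without the control and from 0.45 to 0.65 with it. With that control kept, Trim30d was at 0.23 without LKO male replicate 1, Ifit3b at 0.30 without LKO male replicate 2 and Fpr1 at 0.34 without control male replicate 6. Pdzk1ip1, 1700056E22Rik, H2-Q1 and Pmvk were on the other side, at -1.17, -0.96, -0.87 and -0.80 without it. H2-Q1, a class I histocompatibility gene, belongs to a family of near-identical copies, and its counts are uncertain. None of these 10 passed the adjusted edgeR test in either fit.

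Genes of cholesterol synthesis had mostly lower values in LKO livers, without any passing the adjusted edgeR test. The pathway runs from acetyl-CoA through HMG-CoA and mevalonate to squalene and sterols, and the transcription factor SREBP2, encoded by Srebf2, raises its genes when cell sterol is low. Of the 23 of 26 listed genes that are among the 9810, 20 had a negative and 3 a positive log2 difference, with a median of -0.31, against 0.01 over all 9810. At an unadjusted p under 0.05 there were 4 lower and none higher, against 7.22% of all genes tested lower and 5.23% higher. Without control male replicate 4, the median was -0.43, 21 were lower, and 12 had an unadjusted p under 0.05, against 6.35% of all genes tested on that side. The median was -0.14 without control male replicate 6 and -0.20 without LKO male replicate 5, the highest control and the lowest LKO liver for this list.

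Beginning with the first enzymes, Hmgcs1, which makes HMG-CoA, measured 79.8, 78.0, 105, 43.5 and 136 CPM in controls and 48.3 at the lowest, 63.1 at the median and 84.5 at the highest in LKO livers. Control male replicate 4 was the lowest liver and control male replicate 6 the highest. This was a log2 difference of -0.46 (SE 0.23, edgeR adjusted p = 0.441) and -0.63 (SE 0.17, edgeR adjusted p = 0.296) without replicate 4. Pmvk, the phosphomevalonate kinase, measured 38.2, 34.1, 35.1, 25.7 and 71.1 CPM in controls and 14.4 at the lowest, 27.9 at the median and 33 at the highest in LKO livers. For Pmvk control male replicate 6 stood above all others. On the log2 scale the difference was -0.68 (SE 0.25) and -0.80 (SE 0.24) without replicate 4, but -0.38 without control male replicate 6. Sqle, the squalene epoxidase, had 11.3 ± 11.2 CPM in controls (SD, n = 5) and 4.396 ± 2.30 in LKO livers (SD, n = 6), a log2 difference of -1.37 (SE 0.54, edgeR adjusted p = 0.332). The values of Sqle and Hmgcs1 were -0.58 and -0.25 without control male replicate 6. Tm7sf2, a sterol reductase, had the lowest unadjusted p of the list and a log2 difference of -0.50 (SE 0.17, edgeR adjusted p = 0.288). Srebf2 itself had -0.24 (SE 0.13), and -0.34 without replicate 4. The mean level of the list in single livers ranged from -0.52 in control male replicate 4 to 0.82 in replicate 6 among controls. Among LKO livers it ranged from -0.91 in replicate 5 to 0.31 in replicate 1, in log2 units relative to the mean of the 11 livers. The groups overlapped.

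The promoters of this list were searched for CACCCCAC, the core of a sterol regulatory element, on both strands of the window from 250 bases before to 50 after the start in the RefSeq table (GRCm38.p6, a different build from the counts). Windows were found for 16 of the 23 genes. The motif was in 2 of these, Hmgcs1 and Acat2, the cytosolic acetoacetyl-CoA thiolase, against 2.98% of all genes in the table. It was also in 2 of the 14 clock genes with a window. The 2 stretches are shown 5′ to 3′ along the gene with the motif in capitals.
Hmgcs1: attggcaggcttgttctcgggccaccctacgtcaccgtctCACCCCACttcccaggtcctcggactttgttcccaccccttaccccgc
Acat2: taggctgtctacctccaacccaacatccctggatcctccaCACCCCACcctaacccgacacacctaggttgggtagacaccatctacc
They lie at chr13:119690175-119690262 on the plus strand and at chr17:12960859-12960946 on the minus strand, and the motif begins 136 and 181 bases before the start. CCAAT, the letters bound by NF-Y, was in 14 of the 16 genes and in 10 of the 14 clock genes, against 37.5% of all genes in the table, and its letters do not occur within the first motif. A match describes letters in the window and not a bound site.

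**Figure D2:**
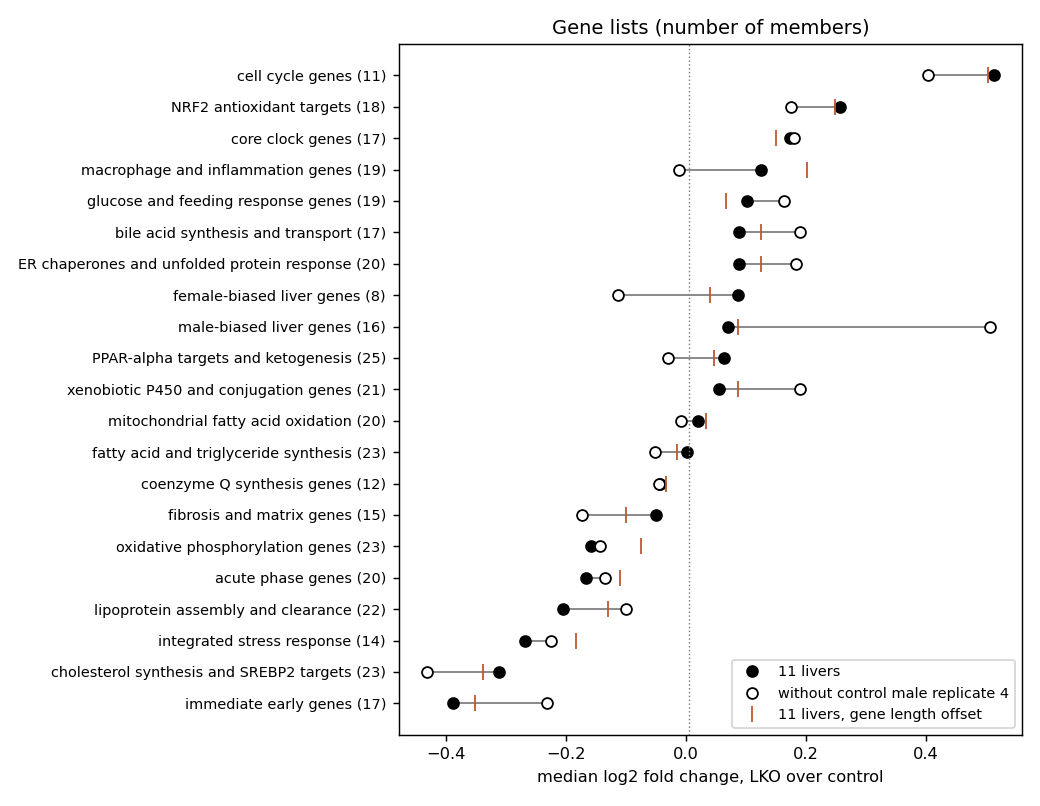
The horizontal axis is the median log2 fold change of LKO over control for each of 21 gene lists (rows, with the number of genes), from 11 livers (filled), without control male replicate 4 (open) and from 11 livers with a gene length offset (ticks). The dotted line is the median of all 9810 genes; male-biased genes moved most between the filled and open symbols, from 0.07 to 0.51.

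As a list, the genes of fatty acid oxidation and carnitine transport lay near the median of all genes. Of the 20 listed genes, 11 were higher and 9 lower, with a median log2 difference of 0.02 and, without control male replicate 4, -0.01. With 1 liver left out it ran from -0.04 without LKO male replicate 5 to 0.08 without control male replicate 6. At an unadjusted p under 0.05, 2 were higher and 1 lower, against 5.23% and 7.22% of all genes tested. Without control male replicate 4 there were none on either side. Etfb, a subunit of the flavoprotein that takes electrons from acyl-CoA dehydrogenases, had -0.28 (SE 0.11, edgeR adjusted p = 0.343). Acadvl, the very-long-chain acyl-CoA dehydrogenase, had 0.30 (SE 0.14) and Slc22a5, the carnitine importer, 0.35 (SE 0.15). Cpt2, the partner enzyme on the inner membrane, had 169.7 ± 8.10 CPM in controls (SD, n = 5) and 182 ± 23.5 in LKO livers (SD, n = 6), a log2 difference of 0.10 (SE 0.09, edgeR adjusted p = 0.711). Slc25a20, the carnitine carrier, had 0.20 (SE 0.11). Without LKO male replicate 5, Cpt2 and Slc25a20 were at 0.03 and 0.11.

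Targets of PPAR-alpha and genes of ketone synthesis were spread to both sides, 15 higher and 10 lower of 25, with a median log2 difference of 0.06, -0.03 without control male replicate 4 and -0.05 without LKO male replicate 5. Fabp1, the liver fatty acid binding protein, measured 5026, 5507, 4999, 5802 and 7109.6 CPM in controls and 3776 at the lowest, 4713 at the median and 4973 at the highest in LKO livers. Every LKO liver lay below every control, LKO male replicate 1 by a small margin. The log2 difference was -0.30 (SE 0.12, edgeR adjusted p = 0.324) and -0.12 with the gene length offset. Fgf21, a hormone made by liver under fasting and mitochondrial stress, had 18.1 ± 12.9 CPM in controls (SD, n = 5) and 10.4 ± 1.82 in LKO livers (SD, n = 6), a log2 difference of -0.80 (SE 0.36) and -1.03 (SE 0.27, edgeR adjusted p = 0.275) without replicate 4. It was -0.29 without control male replicate 3, the highest liver for Fgf21.

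Fatty acid and triglyceride synthesis genes had a median of 0.00, with no unadjusted p under 0.05 among 23. Without control male replicate 4 the median was -0.05 and 15 of 23 were negative. In that fit 4 were lower at an unadjusted p under 0.05, against 6.35% of all genes tested. The lowest p belonged to Elovl6, which lengthens palmitate (0.68, SE 0.32). Lipoprotein genes were lower in 16 of 22, with a median of -0.20. Apoa1, the main protein of high-density lipoprotein, measured 11809.8, 10582, 10575, 14907 and 15852 CPM in controls and 7644 at the lowest, 8557 at the median and 11914 at the highest in LKO livers. Controls 4 and 6 were the highest, and the groups overlapped. This was a log2 difference of -0.47 (SE 0.16, edgeR adjusted p = 0.284). In the whole list 5 of 22 were lower and 1 higher at an unadjusted p under 0.05, against 7.22% and 5.23% of all genes tested. The list's median was -0.10 without control male replicate 4 and -0.13 with the gene length offset. Mttp, which loads lipid onto apolipoprotein B, had 0.16 (SE 0.07).

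Bile acid genes had positive values in 12 of 17 (median 0.09, which ran from -0.03 without control male replicate 3 to 0.19 without control male replicate 4). Cyp7a1, the rate-limiting enzyme of bile acid synthesis, measured 19.4, 12.6, 12.2, 26.9 and 43.0 CPM in controls and 11.2 at the lowest, 52.2 at the median and 58.4 at the highest in LKO livers. LKO male replicate 6 was the lowest of all livers and the other 5 LKO livers were above every control. Cyp7a1 had a log2 difference of 1.01 (SE 0.40, edgeR adjusted p = 0.334). Abcc2, a canalicular exporter of conjugates, had the lowest p of the list (0.32, SE 0.10, edgeR adjusted p = 0.279). Without control male replicate 4, 15 of 17 were higher and 5 had an unadjusted p under 0.05, against 5.12% of all genes tested higher.

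Targets of NRF2, the factor that induces antioxidant and conjugating enzymes, were higher in 17 of 18, with a median log2 difference of 0.26 and 0.17 without control male replicate 4. Without that control 15 of 18 were higher. At an unadjusted p under 0.05, 5 were higher with 11 livers and 3 without that control, against 5.23% and 5.12% of all genes tested. Ephx1, the microsomal epoxide hydrolase, measured 591, 474, 584, 424 and 395 CPM in controls and 515 at the lowest, 710.2 at the median and 782 at the highest in LKO livers. The groups overlapped through LKO male replicate 1. On the log2 scale the difference was 0.49 (SE 0.14, edgeR adjusted p = 0.266). Txnrd1, the cytosolic thioredoxin reductase, had 0.24 (SE 0.09), and the glutathione transferases Gstm1 and Gstm3 had 0.53 (SE 0.23) and 1.20 (SE 0.53). Nqo1, a widely used marker of NRF2, had 0.36 (SE 0.27, edgeR adjusted p = 0.630). The 2 lowest livers for the list were controls 4 and 6, at -0.81 and -0.51 log2 units relative to the mean of the 11 livers. The groups overlapped: LKO replicates 1 and 5 were at -0.362 and -0.105, below control replicates 1 and 3 at 0.186 and 0.147.

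Clock genes, which drive daily rhythms, had positive values in 13 of 17 (median 0.17, and 0.04 without LKO male replicate 1), with 7 higher and 1 lower at an unadjusted p under 0.05, against 5.23% and 7.22% of all genes tested. At that threshold 3 were higher and 1 lower with the gene length offset, against 391 and 627 of the 9810 genes. Without control male replicate 4 the median was 0.18, with 5 higher and 1 lower, against 5.12% and 6.35% of all genes tested. Per2, a repressor of the clock, measured 15.3, 22.8, 18.6, 12.9 and 14.4 CPM in controls and 20.5 at the lowest, 24.4 at the median and 28.9 at the highest in LKO livers. The groups overlapped through control male replicate 2. The log2 difference was 0.55 (SE 0.15, edgeR adjusted p = 0.250). Cry2, another repressor, had 0.34 (SE 0.11), while Nr1d1, the nuclear receptor REV-ERB-alpha, had -0.54 (SE 0.24). The time of day at which each liver was taken is not given in the sources used here.

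Oxidative phosphorylation genes had negative values in 20 of 23 (median -0.16), with 9 lower and 1 higher at an unadjusted p under 0.05, against 7.22% and 5.23% of all genes tested. Without control male replicate 4 it was 3 lower and none higher, against 6.35% and 5.12% of all genes tested, with a median of -0.14. Cox6c, a subunit of cytochrome c oxidase, measured 239, 223, 222, 279.8 and 314 CPM in controls and 187 at the lowest, 206 at the median and 222 at the highest in LKO livers. Controls 4 and 6 were the highest, and only LKO male replicate 6 reached the range of the controls. This was a log2 difference of -0.31 (SE 0.10, edgeR adjusted p = 0.280). Ndufs1, a core subunit of complex I, had a positive value of 0.15 (SE 0.07). With the gene length offset the median of the list was -0.07. At an unadjusted p under 0.05, 2 genes were then lower, against 627 of the 9810 genes.

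Stress genes of the integrated response had negative values in 11 of 14 (median -0.27, and -0.14 without LKO male replicate 3). At an unadjusted p under 0.05 there were 5 lower and none higher, against 7.22% and 5.23% of all genes tested. Without control male replicate 4 the median was -0.22, with 2 lower, against 6.35% of all genes tested. With the gene length offset the median was -0.18, with 3 lower, against 627 of the 9810 genes. Atf4, its central transcription factor, measured 93.4, 93.0, 89.0, 91.3 and 84.2 CPM in controls and 63.5 at the lowest, 68.9 at the median and 89.0 at the highest in LKO livers. The controls were tightly grouped, and 5 of 6 LKO livers lay below them. On the log2 scale the difference was -0.31 (SE 0.09, edgeR adjusted p = 0.274). Nupr1, a stress-induced chromatin protein, had -1.05 (SE 0.35) and Gdf15, a circulating stress signal, -0.48 (SE 0.25). Immediate early genes, which respond within minutes to stimuli, had a median of -0.39 and -0.23 without control male replicate 4. Myc, a transcription factor of growth, went the other way from most of them. It measured 12.7, 19.1, 17.02, 6.31 and 10.1 CPM in controls and 12.8 at the lowest, 31.4 at the median and 55.2 at the highest in LKO livers, and LKO replicates 5 and 6 lay within the controls. The log2 difference of Myc was 1.304 (SE 0.41, edgeR adjusted p = 0.274).

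Cell cycle genes, of which 11 of 20 listed had enough counts, had positive values in 10 of 11 (median 0.51, and 0.28 without LKO male replicate 3). Without control male replicate 4 the median was 0.40, with positive values in 9 of 11. Cdkn1a, the p21 inhibitor that stops the cycle, measured 27.6, 14.4, 34.1, 11.7 and 9.13 CPM in controls and 19.7 at the lowest, 37.6 at the median and 58.0 at the highest in LKO livers, a log2 difference of 0.97 (SE 0.34, edgeR adjusted p = 0.303). LKO male replicate 3 was the highest liver for Cdkn1a and for the mean of the list. That mean overlapped between the groups, at -0.69 to 0.15 log2 units in controls and -0.30 to 0.91 in LKO livers.

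Among macrophage genes, Fabp5, a fatty acid binding protein that is also 1 of the 10 markers of recruited macrophages, measured 41.1, 24.5, 39.5, 27.4 and 39.95 CPM in controls and 6.31 at the lowest, 15.9 at the median and 26.0 at the highest in LKO livers. Only LKO male replicate 1 overlapped the controls. The log2 difference was -1.12 (SE 0.28, edgeR adjusted p = 0.245), while the median of the 19 genes of its list was 0.13. That median was -0.01 without control male replicate 4, and ran from -0.11 without LKO male replicate 3 to 0.34 without control male replicate 3. The summed markers of recruited macrophages were 193 to 468 CPM in controls and 198 to 523 in LKO livers, and their part was not tested. Fibrosis genes had a median of -0.05, which was -0.17 with 14 of 15 negative without control male replicate 4, and 0.07 when control male replicate 1 was left out. Acta2, the smooth muscle actin of activated stellate cells, had -0.68 (SE 0.31), and -0.38 without control male replicate 1. Acute phase genes were lower in 15 of 20, with a median of -0.17, -0.135 without control male replicate 4 and -0.11 with the gene length offset. Apcs, the serum amyloid P component, was at -0.64 (SE 0.15, edgeR adjusted p = 0.235). Glucose genes had a median of 0.10, which was 0.16 without control male replicate 4 and 0.004 without LKO male replicate 1. Pck1, the entry enzyme of gluconeogenesis, had 0.34 (SE 0.15). Chaperones of the endoplasmic reticulum had a median of 0.09, which was 0.18 without control male replicate 4 and -0.09 without LKO male replicate 1. In their list Dnajb9 stood at 125 CPM in LKO male replicate 1 and at 38.9 to 55.7 in the other LKO livers, with a log2 difference of 0.66 (SE 0.27, edgeR adjusted p = 0.343) that was 0.32 without replicate 1. Drug-metabolising genes had a median of 0.06 (12 positive and 9 negative), which was 0.19 with 17 of 21 positive without control male replicate 4, and -0.03 when control male replicate 3 was left out. Coenzyme Q genes had a median of -0.04 with and without control male replicate 4. Coq10a, a coenzyme Q binding protein, was at -0.25 (SE 0.08).

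**Figure D3:**
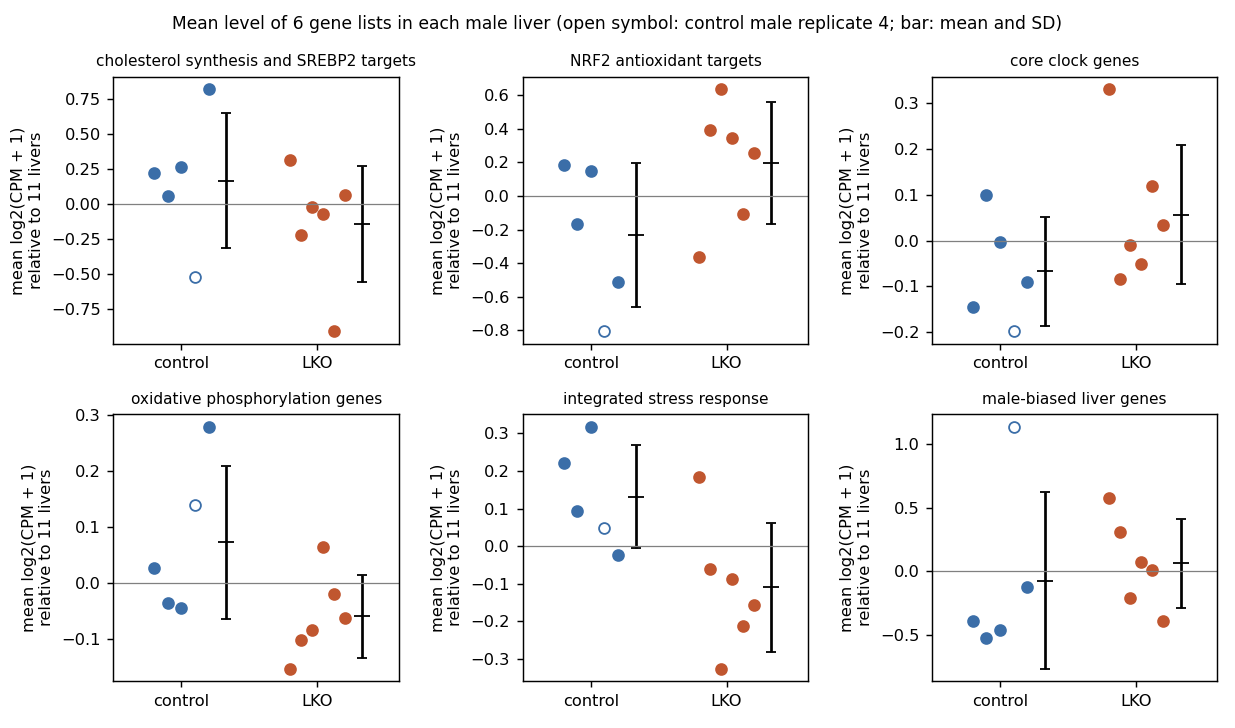
The vertical axis is the mean log2(CPM + 1) of a gene list in each liver, relative to the mean of the 11 livers; each symbol is 1 liver, the bars are the mean and SD, and control male replicate 4 is open. That control is the highest liver for male-biased genes, at 1.14, and the lowest for NRF2 targets, at -0.81.

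The log2 differences varied with gene length, although most genes of each length had an unadjusted p above 0.05 and single livers of the groups overlapped. The 9810 genes were put into 5 groups of nearly equal size by the deposited gene length. The median log2 difference was -0.14 for the shortest genes (374 to 2517 bases), then -0.02, 0.02 and 0.05, and 0.07 for the longest (7688 to 123179 bases). At an unadjusted p under 0.05 there were 435 lower and 39 higher among the 1963 shortest genes, and 24 lower and 169 higher among the 1961 longest, where 7.22% of all genes tested were lower and 5.23% higher. Of the 127 separated genes that were lower (1.1% of all genes tested were separated on that side), 68 were in the shortest group. The order was the same without control male replicate 4, from -0.13 to 0.08. Between female LKO and control livers, in the fit of all 23 samples, it was the reverse, from 0.026 for the shortest genes to -0.023 for the longest.

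The length pattern was not the same in every liver of a group. The shortest genes stood at 0.19, 0.12 and 0.08 log2 units relative to the mean of the 11 livers in control replicates 6, 4 and 1, and at -0.01 and -0.03 in control replicates 3 and 2. LKO livers ran from -0.13 in replicate 1 to 0.01 in replicate 4. Ribosomal protein genes, which are short, had a median log2 difference of -0.29 over 72 genes, with 55 lower and none higher at an unadjusted p under 0.05, against 7.22% and 5.23% of all genes tested. They took from 1.27% of counts in LKO male replicate 1 to 1.8% in control male replicate 6. With an offset that removes each liver's trend with length, their median was -0.21, and over all genes tested the number with an unadjusted p under 0.05 went from 1719 to 1356 (9.82%). Cpt1a remained the single call, at -2.58 (SE 0.19). The part of RNA quality or library preparation in the trend was not tested.

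**Figure D4:**
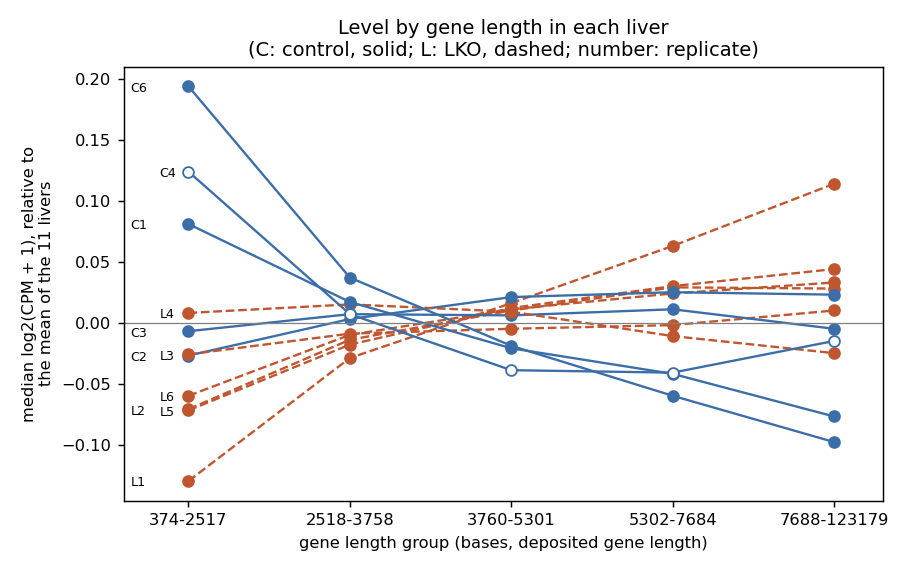
The vertical axis is the median log2(CPM + 1) of the genes in each of 5 length groups (horizontal axis, bases) relative to the mean of the 11 livers; each line is 1 liver, solid for controls and dashed for LKO, and control male replicate 4 has open symbols. Control replicates 6, 4 and 1 stand above 0 for the shortest genes, and LKO replicate 1 stands lowest at -0.13.

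The genes in which control male replicate 4 stood furthest from the other controls included 5 major urinary proteins above and 2 lipid droplet genes below. Major urinary proteins are pheromone carriers made by male liver under pulsatile growth hormone. Mup19 stood at 1202 CPM in that liver and at 2.26, 4.28, 3.50 and 15.4 in control replicates 1, 2, 3 and 6. Mup17 stood at 10043 against 326, 585, 383 and 259.6, and Mup12 at 9799 against 334, 852, 421 and 1454. Mup13, Mup15 and Serpina1e, a protease inhibitor, completed the 6 genes furthest above, with gaps to the median of the other controls of 6.79, 5.39 and 4.71 log2 units. The Mup genes are near-identical copies, and how their reads were divided is uncertain. LKO male replicate 1 was the next highest liver for Mup15, Mup17, Mup12 and Serpina1e.

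Furthest below was Cidea, a protein that enlarges lipid droplets, at 0.324 CPM in control male replicate 4 and 44.4, 41.1, 67.6 and 88.3 in the other controls. Cidec, its relative in fat and fatty liver, stood at 10.4 against 229.9, 225, 307 and 270.4. LKO male replicate 1 was the second lowest liver for both, at 2.04 and 58.1 CPM. Ly6d, Cyp2a4, Ephb2 and Cfd, which encodes adipsin, completed the 6, with gaps of -4.69, -3.97, -3.89 and -3.66 log2 units. The summed level of the 8 adipocyte markers was 11.8 CPM in control male replicate 4, 135 to 239 in the other controls and 44.6 to 191 in LKO livers. Both Cidea and Cfd are in that marker list, and Lep and Ucp1, 2 of its defining genes, had at most 3 counts in any liver. The part of fat cells in these values was not tested.

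**Figure D5:**
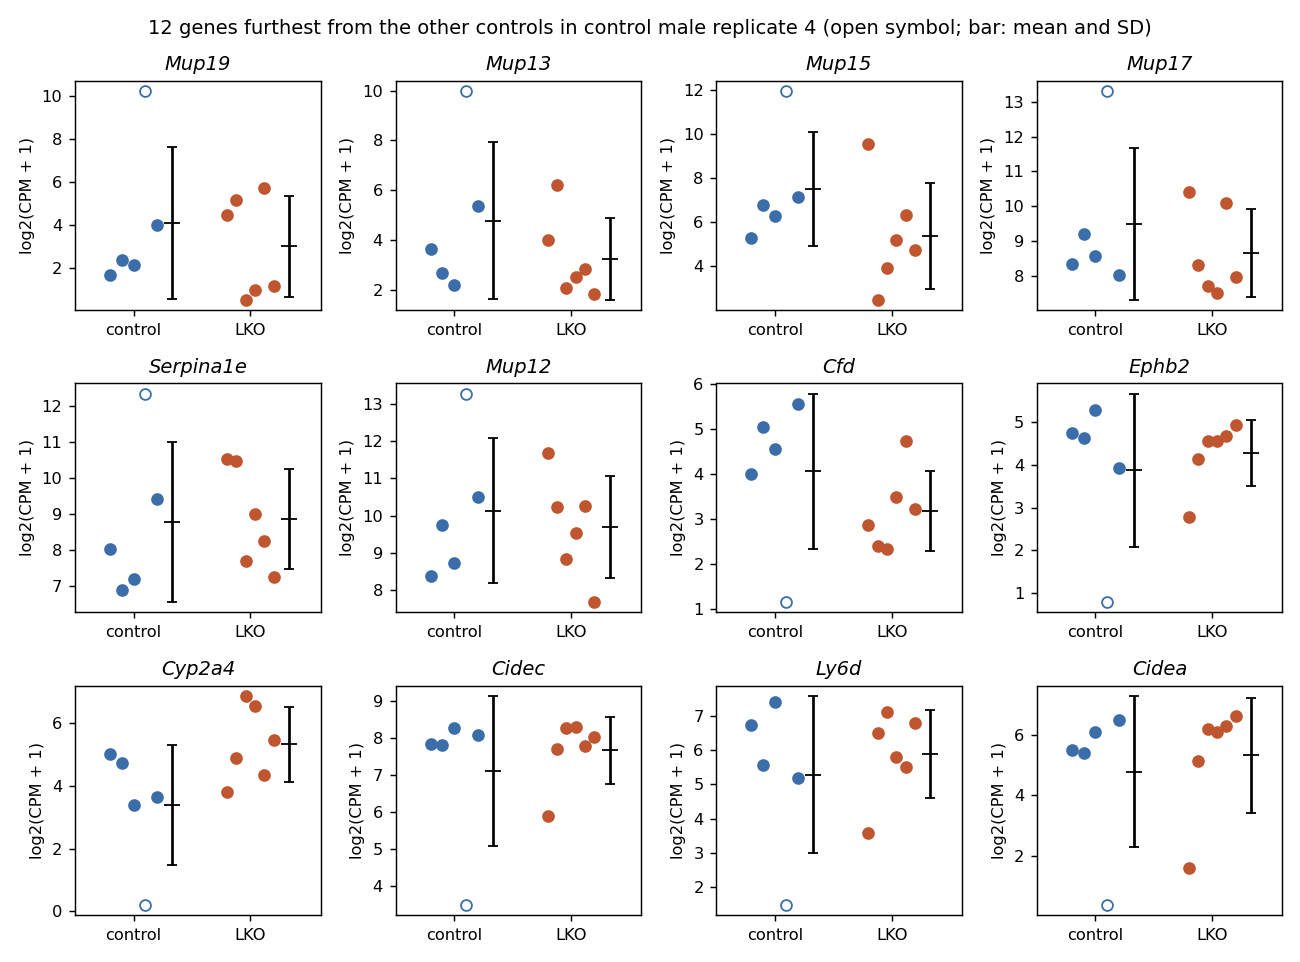
Each panel plots log2(CPM + 1) of 1 gene (vertical axis, not starting at 0) in the 5 control and 6 LKO male livers, 1 symbol per liver, with the mean and SD beside each group. Control male replicate 4 (open) lies furthest above the other livers in the first 6 panels and furthest below in the last 6.

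Leaving this control out moved the median of the male-biased list more than that of any of the other 20 lists. Of its 16 genes, 10 were higher in LKO livers with a median of 0.07, and without control male replicate 4 it was 12 with a median of 0.51 and 8 higher at an unadjusted p under 0.05, against 5.12% of all genes tested. Mup20, known as darcin, measured 3274, 1785, 3346, 3182 and 1774 CPM in controls and 2905 at the lowest, 4081 at the median and 5615 at the highest in LKO livers. Controls 2 and 6 were the lowest livers. This was a log2 difference of 0.61 (SE 0.23, edgeR adjusted p = 0.313) and 0.68 without replicate 4. Cyp2d9, a male-biased steroid hydroxylase, went from 0.29 (SE 0.16) to 0.51 (SE 0.09, edgeR adjusted p = 0.125). Selenbp2 went from 0.46 (SE 0.72) to 1.97 (SE 0.50). Of the 20 female-biased genes listed, 8 had enough counts, with a median of 0.09, -0.11 without replicate 4 and 0.24 without control male replicate 6.

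Summed markers of other cells did not separate the groups. Hepatocyte markers, of which 9 of 10 symbols are in the table, summed to 62742 to 95440.1 CPM in controls and 57876 to 82427 in LKO livers, so the livers carry the defining transcripts of the labelled tissue. Stellate, sinusoidal endothelial, cholangiocyte, recruited macrophage, neutrophil and red blood cell sums overlapped between the groups. At an unadjusted p under 0.05, 2 of 9 tested hepatocyte and 2 of 9 tested cholangiocyte markers were lower, against 7.22% of all genes tested. Recruited macrophage, neutrophil and red blood cell markers had 1 lower each, and stellate and endothelial markers none. None of these 7 types had a marker that was higher at that threshold. Pancreatic acinar markers (8 of 10 in the table) were at 73.5 CPM in control male replicate 4 and at most 29.2 in the other controls. Of those 8 acinar markers, 1 passed the filter on low counts, and Cpa1, Cpb1 and Amy2a5 had at most 3 counts in any liver. The part of pancreatic tissue in that sum was not tested. Skeletal muscle markers (4 of 8) were at most 1.56 CPM in any liver.

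Female livers of the same genotypes gave a test of whether the male differences differ by sex. The fall of Cpt1a had an interaction value of 0.15 (SE 0.23, edgeR adjusted p = 0.821), the log2 difference in females minus that in males. None of the 65 named genes that could be tested differed between the sexes at an adjusted p under 0.05 (0 of 14503 genes over the whole fit, 0.0%), although 28 had an unadjusted p under 0.05, against 12.9% of all genes. Without control male replicate 4, edgeR called 1 named gene, Ifit3b (0.116% over all genes). DESeq2 with all livers called 8 (0.532% over all genes): Cyp2a5, Ugt1a6a, Siglec1, Echdc1, Bach2, Pigyl, Ifit3b and Abcc2. Cyp2a5 had an interaction value of -1.24 (SE 0.31, edgeR adjusted p = 0.155). Most of the named genes were chosen for their male values, and the sexes come from separate deposited tables.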

How the data were processed

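RNA from 11 male livers is described, and 12 female livers entered only the interaction and the fit of all 23 samples. Reads were aligned to mm39 with HISAT2 2.0.5, per the submitters' processing notes; the counter and annotation are not given in the sources used here. Per the labels' protocols, libraries were made from poly-T selected RNA with dUTP. No source says whether strand was used in counting, which leaves overlapping and antisense genes uncertain. The authors deposited raw read counts per gene for each liver, the same counts divided by a size factor (a normalized signal), and FPKM values. The authors' deposited table also holds log2 fold changes and p-values. No column of sample values was left unmapped (0).

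Raw counts were tested with edgeR 4.0.16 in R 4.3.3 (filterByExpr, TMM, quasi-likelihood test, Benjamini-Hochberg adjustment over all genes tested, called at an adjusted p under 0.05). Standard errors are the log2 fold change over the square root of F. The members and lists were chosen with earlier results of these data known. Lists are described by counts and medians. CPM values are TMM-scaled, and a pseudocount of 1 was used on the log2 scale. Named genes are Cpt1a and its paralogs, called genes, the 10 largest increases and 10 largest decreases among genes with no overlap and an unadjusted p under 0.01, the 5 and 5 such genes added without control male replicate 4, the lowest p of each of 21 lists, and the 6 and 6 genes in which that control, outside the range of all other livers, stood furthest above and below the other controls. Alternatives were RLE factors, library size alone, no filter, at least 10 counts in every sample, only the 9810 genes, DESeq2 1.42.0, limma 3.58.1 (voom with quality weights, and log2(FPKM + 1)), a replicate block, all 23 samples, each sample left out, and, chosen after seeing the data, a gene length offset (lowess span 0.3). The scripts were tested on simulated data. Marker and list symbols absent from the table (such as Tf, Slp and Bmal1) were left out.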

Additional observations from a re-analysis of the deposited data

Results flagged for a closer look

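In 21 of 132 groups of livers examined (2 groups for each of the 66 named genes), the highest or lowest liver stood apart from the rest, judged by its gap to the nearest liver as a share of the range of the group. Chance alone gives about 1 in 20 groups, and several of the named genes were chosen because control male replicate 4 stood apart in them. That liver accounted for 11: Mup19 (0.989), Mup15 (0.973), Mup17 (0.967), Mup13 (0.963), Serpina1e (0.887), Mup12 (0.882), Ifit3b (0.766), Trim30d (0.752), Timd4 (0.727), Cidec (0.724) and Galt (0.71). LKO male replicate 1 stood apart in Ccdc134 (0.909), Mup15 (0.897), Trim30d (0.821), Dnajb9 (0.804) and Mup12 (0.665), with the highest value each time. LKO male replicate 2 was highest in Mup13 (0.822) and lowest in Fabp1 (0.699). Kcp in LKO male replicate 3 (0.904), Pmvk in control male replicate 6 (0.725) and Cfd in LKO male replicate 5 (0.719) completed the set. No named gene differed between the sexes by edgeR's adjusted test of the difference (0 genes).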

How the results depend on the processing

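The number of genes called at an adjusted p under 0.05, which was 1 by edgeR, was 2 with library size alone, without a filter or on the 9810 genes only, 3 with at least 10 counts in every sample, 5 with all 23 samples in 1 fit and 107 with DESeq2. Leaving out 1 liver gave 1 to 2 calls, the higher number when it was control male replicate 1. In the fit that omits control male replicate 4 it was 3 on the 9810 genes only, 2 with limma's quality weights and 98 with DESeq2, and 1 to 3 when a further liver was left out (3 when it was control 2 and 2 when it was control 3). Cpt1a was among the calls each time, and its difference in log2(CPM + 1) ran from -2.66 to -2.42 with 1 liver left out. Named genes differing between the sexes, 0 by edgeR, were 8 with DESeq2 and 1 without control male replicate 4. The 203 genes without overlap became 233 to 421 with 1 liver left out (421 without control male replicate 2, 386 without replicate 3, 312 without replicate 4 and 308 without LKO male replicate 4). The 53 named genes with a fit, leaving aside the 12 chosen for control male replicate 4, kept their direction in all but 1 of 1145 alternative values: Cpt1c, which did not pass the test, went from -0.31 to 0.053 without control male replicate 1, and its values with 1 liver left out ran from -0.467 to 0.053. Most of these genes were named because their groups did not overlap or their p was low, which largely fixes a kept direction in advance. In 26 of the alternative values a gene newly passed the adjusted test, 15 of them with DESeq2. The cause of these changes was not tested.

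Replicate numbers are shared by both groups, but same-numbered livers did not deviate together (correlations of -0.45, -0.03, 0.44, -0.15 and -0.05 for numbers 1, 2, 3, 4 and 6), and only number 3 correlated best with its own. With the replicate number as a block, 2 genes were called (Cpt1a and Ces2c), and 1 without control male replicate 4. With 5 and 6 livers, a missed threshold does not show that the groups were alike.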
